A study of Mus musculus with 12 samples.

Results

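The lysosomal cathepsin genes examined here are Ctsa, Ctsb, Ctsc, Ctsd, Ctse, Ctsh, Ctsk, Ctsl, Ctss and Ctsz. They were listed by name, and all 10 had probes among the 25128 genes and unnamed targets on the array. Each was represented by 1 target with 3 probes. RNA was taken from 4 plates each of 3 mouse cell lines. BV2 is an immortalized microglial line that was kept under conditions favoring a resting state, N18 is a neuroblastoma line, and AtT20 is a line from a pituitary tumor. All 12 plates were grown untreated in DMEM with 10% serum and antibiotics, and each was measured on 1 single-color NimbleGen array, for which the authors deposited log2 values. Each line is a single tumor or transformed culture, so a difference between lines is not a difference between cell types in tissue. In these bulk samples, fewer cells expressing a gene and less RNA per cell cannot be told apart.

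Cathepsins are the proteases that break down proteins in the lysosome. They are made as inactive precursors, are carried from the Golgi apparatus by mannose 6-phosphate receptors and become active in the acid that the vacuolar ATPase provides. Most of the group are papain-like cysteine proteases (Ctsb, Ctsc, Ctsh, Ctsk, Ctsl, Ctss and Ctsz), while Ctsd and Ctse encode aspartic proteases and Ctsa a serine carboxypeptidase. In microglia and macrophages they degrade what has been taken up by phagocytosis and prepare peptides for antigen presentation.

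The lines were first checked against marker genes. A level is the log2 intensity of a gene minus the mean of 10 seminal proteins, which were not expected in these lines. A gene was counted as detected when its mean level over 4 plates exceeded 2 SD of these proteins, which was 0.56 ± 0.15 for BV2, 0.74 ± 0.10 for N18 and 0.37 ± 0.11 for the plates labelled AtT20 (mean ± SD, n = 4). Over all genes and targets 53.3% passed in BV2, 55.4% in N18 and 35% for AtT20. BV2 passed for 8 of 10 microglia markers, with Aif1 (0.30) and Cx3cr1 (0.40) below the threshold, and for 4 of 10 neuroblastoma markers and 2 of 6 corticotroph markers, Pomc (0.67) included. N18 passed for all 10 neuroblastoma markers, and for 3 of the microglia and 3 of the corticotroph markers. The plates labelled AtT20 passed for 1 of the corticotroph markers, with Pomc (0.29) below the threshold, for 1 of the microglia markers and for 5 of the neuroblastoma markers, with Hand2 at 2.03. These plates also stood apart in the spread of their probes, with an interquartile range of 0.38 to 0.78 on the log2 scale, against 1.28 to 1.73 in BV2 and 1.91 to 2.21 in N18. They are therefore named by their label, and values of the comparison of BV2 and N18 are given with and without them. Which plates shared a slide is not given in the sources used here, so slide and line cannot be told apart.

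Sequences just upstream of the cathepsin genes are shown because both E-boxes (CACGTG), which the MiT family of lysosomal regulators binds, and the purine-rich motif of the myeloid factor PU.1 (GAGGAAGT) are known from genes of this kind. RefSeq windows of 300 bases, from 250 before to 50 after an annotated start, were found for 7 of the 10 genes (8 windows, GRCm38.p6). The windows of Ctss and Ctsk, which lie next to each other on the chromosome, and of Ctsd and Ctsa are given 5′ to 3′ on the strand of the gene, with GAGGAAGT, CACGTG and GTCACGTG on either strand in capitals. The last of these contains CACGTG. The Ctss window is at chr3:95526536-95526835 (+), that of Ctsk at chr3:95498960-95499259 (+), that of Ctsd at chr7:142387778-142388077 (-) and that of Ctsa, the downstream of 2, at chr2:164833523-164833822 (+).
Ctss: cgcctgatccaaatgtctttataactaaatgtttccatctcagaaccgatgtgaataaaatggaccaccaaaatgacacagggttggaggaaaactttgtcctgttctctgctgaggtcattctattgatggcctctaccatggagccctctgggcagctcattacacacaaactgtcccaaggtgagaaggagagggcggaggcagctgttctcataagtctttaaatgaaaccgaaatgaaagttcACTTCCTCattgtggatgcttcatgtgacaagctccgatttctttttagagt
Ctsk: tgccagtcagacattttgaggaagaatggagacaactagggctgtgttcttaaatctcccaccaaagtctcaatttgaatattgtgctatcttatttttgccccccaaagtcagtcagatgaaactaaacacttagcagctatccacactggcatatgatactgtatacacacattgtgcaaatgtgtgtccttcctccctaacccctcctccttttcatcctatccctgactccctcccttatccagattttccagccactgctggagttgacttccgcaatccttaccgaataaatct
Ctsd: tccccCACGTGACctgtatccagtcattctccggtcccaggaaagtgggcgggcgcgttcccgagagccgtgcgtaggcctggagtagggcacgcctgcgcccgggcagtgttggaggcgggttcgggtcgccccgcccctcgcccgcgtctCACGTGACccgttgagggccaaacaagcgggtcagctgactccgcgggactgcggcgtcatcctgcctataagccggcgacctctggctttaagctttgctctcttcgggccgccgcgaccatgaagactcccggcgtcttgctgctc
Ctsa: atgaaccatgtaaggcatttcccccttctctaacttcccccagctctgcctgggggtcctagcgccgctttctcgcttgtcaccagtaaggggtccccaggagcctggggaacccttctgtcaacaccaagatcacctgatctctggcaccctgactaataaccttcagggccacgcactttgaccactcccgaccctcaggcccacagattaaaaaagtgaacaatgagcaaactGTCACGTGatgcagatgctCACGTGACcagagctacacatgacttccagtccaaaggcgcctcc

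The Ctss window holds GAGGAAGT on the reverse strand, beginning 2 bases before the start. The same letters occur in the window of Ctsc, and in 3.2% of all 32851 windows of this length. GTCACGTG is present in 2 copies in each of the Ctsd and Ctsa windows shown. In any number of copies, it occurs in 2.25% of all windows. CACGTG occurs in 3 of the 8 cathepsin windows, those of Ctsa, Ctsd and Ctsl, and in 7.15% of all. Neither the Ctsk window nor the other window of Ctsa, which is not shown, holds any of these motifs. A match describes the sequence only, and binding was not measured.

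BV2 cells passed the detection threshold for 9 of the 10 cathepsins, N18 cells for 6 and the plates labelled AtT20 for 2. The same rule passed 53.3%, 55.4% and 35% of all genes and targets, as given above. Ctsa, Ctsb, Ctsd, Ctse, Ctsl and Ctsz passed in both BV2 and N18, Ctss and Ctsk in BV2 alone, and Ctsh in BV2 and on the plates labelled AtT20. Ctsc did not pass in any line. All 6 of the N18 genes and 8 of the 9 BV2 genes exceeded the threshold of every single plate. The exception was Ctsh, with 3 of 4 BV2 plates above their own.

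Within each gene, the mean level over the seminal proteins was highest in BV2. Ctss was at 3.56 ± 0.48 for BV2, -0.31 ± 0.05 for N18 and -0.14 ± 0.08 for the plates labelled AtT20 (SD, n = 4). Ctsk was at 1.83 ± 0.31, 0.56 ± 0.05 and -0.01 ± 0.06 in the same order, Ctsl at 3.58 ± 0.47, 2.36 ± 0.17 and 0.04 ± 0.03, and Ctsb at 2.49 ± 0.65, 1.20 ± 0.24 and -0.07 ± 0.09. For these 4 endopeptidases N18 thus lay between the others, except for Ctss, which was at or below the controls in both N18 and AtT20. Ctsz was at 5.44 ± 0.24, 4.71 ± 0.30 and 0.72 ± 0.30, and Ctsh at 0.66 ± 0.16, 0.30 ± 0.06 and 0.47 ± 0.25. Ctsd was at 5.87 ± 0.35, 5.79 ± 0.11 and 0.08 ± 0.05, Ctse at 1.28 ± 0.12, 1.13 ± 0.12 and 0.12 ± 0.03, and Ctsa at 2.47 ± 0.34, 1.94 ± 0.12 and 0.32 ± 0.18. For Ctsd the BV2 and N18 means differed by less than the spread of the BV2 plates.

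The calls were not equally well supported by the probes. All 3 probes of Ctsb, Ctsd, Ctse, Ctsk, Ctsl, Ctss and Ctsz were above the threshold in BV2. For Ctsh 1 probe alone was above it, with a level of 1.74 in BV2 where the next probe was at -0.52, and the BV2 call became -0.40 with the median of the probes. Likewise the call of Ctsz on the plates labelled AtT20 came from 1 probe at 1.52, with the other two at 0.15 and -0.15. Both calls on those plates, Ctsh and Ctsz, were lost with the median of the probes, which left 0 there. Ctsc in BV2 was close to passing, with a level of 0.53 ± 0.28 (SD, n = 4) and 2 of its 3 probes above the threshold, and it passed with the median (0.62).

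All 10 cathepsins were lower in N18 than in BV2 (limma on 12 quantile-normalized arrays, Benjamini-Hochberg adjustment over all 25128 genes and targets). The adjusted p was between 1.36e-12 and 0.00354. Over all genes 21.9% were called lower in N18 and 19% higher. The median difference of the 10 genes was -1.17, against -0.06 over all genes. With the 8 arrays of BV2 and N18 alone, all 10 were again called lower in N18, with a median difference of -1.21, where 36.1% of all genes were called in that direction and 25.8% in the other. For each of the 10 every BV2 plate was above every N18 plate in the quantile-normalized values of the 12 arrays. The share of all genes separated in this way was not computed, and that of all single probes was 24.5%. Relative to the seminal proteins, the plates of BV2 and N18 overlapped for Ctsd, Ctse and Ctsa. As levels over the seminal proteins, 8 of the 10 were called lower in N18, with a median of -0.87, and Ctsd and Ctse did not pass. The median of all genes was 0.18 on that scale, with 13.1% called lower in N18 and 38.8% higher. With the deposited values 7 were called lower, and Ctsd, Ctse and Ctsh did not pass. Over all genes the shares were then 7.58% lower and 30.7% higher in N18. Among all genes and targets ordered by the difference on the 12 arrays, from lowest to highest, Ctss stood at the 0.275 percentile, Ctsl at 1.25, Ctsb at 2.02 and the other seven between 2.71 and 13.9.

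**Figure D1:**
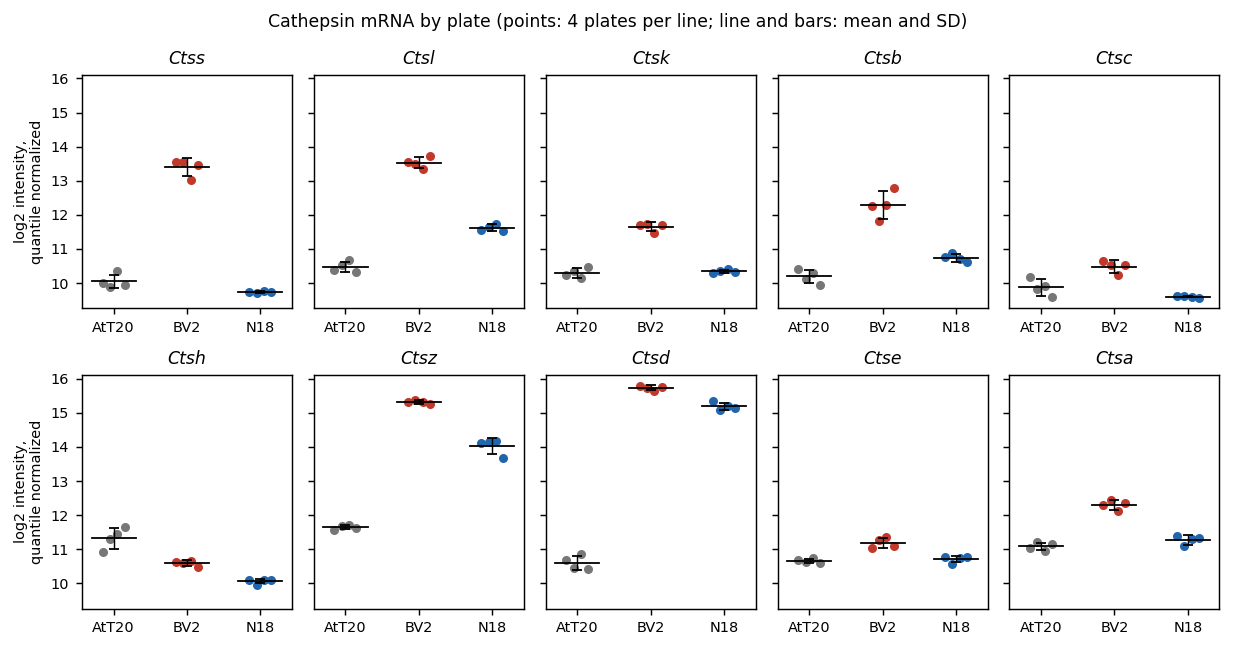
Quantile-normalized log2 intensity of the 10 cathepsin genes (vertical axes) on each plate of the lines labelled AtT20, BV2 and N18 (points), with the mean and SD of 4 plates (line and bars). For each gene the BV2 plates lie above the N18 plates, with the widest gap for Ctss, and for Ctsh the plates labelled AtT20 lie highest.

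Among the endopeptidases, the widest difference was that of Ctss, which encodes the protease that trims the invariant chain from MHC class II in antigen-presenting cells. Its quantile-normalized log2 intensity was 13.54, 13.56, 13.01 and 13.48 on BV2 plates 1 to 4, 9.74, 9.71, 9.76 and 9.74 on those of N18, and 10.00, 9.89, 10.34 and 9.96 on the plates labelled AtT20. BV2 thus stood well clear of both other lines. The difference of N18 from BV2 was -3.66 ± 0.13 (SE, adjusted p = 1.36e-12 in limma), and -4.20 with the 8 arrays alone. Since Ctss was below the threshold in N18, the fold is a lower bound, and BV2 was at least 7-fold higher, taking the smallest of the bounds under 3 scalings. All 3 Ctss probes showed it, with differences of -2.85, -3.47 and -4.16.

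Ctsk, the collagen-degrading protease best known from osteoclasts, is the chromosomal neighbor of Ctss. Its values were 11.70, 11.74, 11.46 and 11.70 in BV2, 10.28, 10.35, 10.41 and 10.33 in N18, and 10.24, 10.35, 10.14 and 10.46 on the plates labelled AtT20. The last 2 groups overlapped, and both were below the threshold. N18 differed from BV2 by -1.31 ± 0.10 (SE, adjusted p = 2.01e-08 in limma), with BV2 at least 2.1-fold higher. The Ctsk difference was nearly the same relative to the seminal proteins (-1.26). Probe 2, named as are all probes by the number at the end of its identifier, gave a difference of only -0.22 with overlapping plates, while probes 329 and 963 gave -1.36 and -1.96.

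Ctsl encodes a widely expressed endopeptidase. It was at 13.56, 13.50, 13.35 and 13.73 in BV2, 11.55, 11.65, 11.75 and 11.53 in N18, and 10.39, 10.52, 10.68 and 10.34 on the plates labelled AtT20, so that the 3 lines did not overlap. The difference of N18 from BV2 was -1.92 ± 0.12 (SE, adjusted p = 1.19e-09 in limma), a fold of 3.77. It was smaller relative to the seminal proteins (-1.22) and with the deposited values (-1.25). Probe 1061 carried much of the quantile-normalized difference with -2.34, while the other Ctsl probes gave -0.40 and -0.44. With the median of the probes the difference was -0.40 and still passed (adjusted p = 0.0353 in limma).

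Ctsb, which encodes an enzyme with both endopeptidase and carboxydipeptidase activity, varied the most among the BV2 plates. Its values were 12.27, 11.81, 12.30 and 12.80 there, 10.76, 10.89, 10.72 and 10.62 in N18, and 10.41, 10.13, 10.29 and 9.94 on the plates labelled AtT20. The lowest BV2 plate was still above each N18 plate. N18 differed from BV2 by -1.55 ± 0.17 (SE, adjusted p = 1.13e-06 in limma), a fold of 2.92, and for each of the 3 probes the plates of these lines did not overlap.

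Among the exopeptidases, Ctsz, the carboxypeptidase also called cathepsin X, was at 15.33, 15.39, 15.32 and 15.26 in BV2, 14.12, 14.13, 14.17 and 13.67 in N18, and 11.57, 11.67, 11.71 and 11.63 on the plates labelled AtT20. As means of the 3 probes, these 3 groups were well separated. The difference of N18 from BV2 was -1.30 ± 0.11 (SE, adjusted p = 8.94e-08 in limma), or -0.73 relative to the seminal proteins. In BV2 probes 706 and 847 of Ctsz averaged 15.69 and 15.71 after quantile normalization. In the deposited values, to which the scanner limit of 16 applies, Ctsz was at 14.94 to 15.20 in BV2. On the BV2 arrays 0 probes reached that limit. A difference in RNA can be compressed near it, which was not tested. Ctsc encodes dipeptidyl peptidase 1, which activates granule serine proteases. It ranged from 10.23 to 10.66 in BV2 and from 9.57 to 9.62 in N18, a difference of -0.88 ± 0.12 (SE, adjusted p = 1.21e-05 in limma), although it was not detected in either. Ctsh, an aminopeptidase, ranged from 10.48 to 10.66 in BV2 and from 9.96 to 10.11 in N18. Its difference of -0.52 ± 0.13 (SE, adjusted p = 0.00354 in limma) was -0.09 with the median of the probes (adjusted p = 0.637) and -0.39 without normalization (adjusted p = 0.104). Since Ctsh was below the threshold in N18, and the bound was not above 1, no fold is given.

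Of the aspartic proteases, Ctsd, the major lysosomal endopeptidase of this class, had high intensities in both lines. Its deposited values ranged from 15.27 to 15.69 in BV2 and from 15.13 to 15.55 in N18. The upper limit of the scanner was reached by 1 of its probes on 1 array. The quantile-normalized values of Ctsd were 15.80, 15.74, 15.64 and 15.77 in BV2, 15.34, 15.09, 15.20 and 15.15 in N18, and 10.69, 10.46, 10.86 and 10.41 on the plates labelled AtT20. BV2 and N18 thus lay close together and far above the plates labelled AtT20. The difference of N18 from BV2 was -0.54 ± 0.11 (SE, adjusted p = 0.000806 in limma). It did not pass in limma against the seminal proteins (-0.08, adjusted p = 0.798) or without normalization (-0.11, adjusted p = 0.752). Compression near the scanner limit was not tested here either. Probe 1255 gave -0.18 with overlapping plates, while the other two gave -0.96 and -0.66.

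Ctse, an aspartic protease of immune and gastric cells, ranged from 11.03 to 11.37 in BV2 and from 10.57 to 10.77 in N18. The difference of -0.47 ± 0.10 (SE, adjusted p = 0.00128 in limma) did not pass against the seminal proteins (-0.15, adjusted p = 0.267), with the deposited values (-0.18, adjusted p = 0.53) or with the median of the probes (-0.42, adjusted p = 0.0573). Ctsa, which also protects beta-galactosidase and neuraminidase in a complex, ranged from 12.12 to 12.44 in BV2 and from 11.08 to 11.39 in N18. It differed by -1.03 ± 0.11 (SE, adjusted p = 1.39e-06 in limma), and by -0.53 relative to the seminal proteins (adjusted p = 0.0234).

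**Figure D2:**
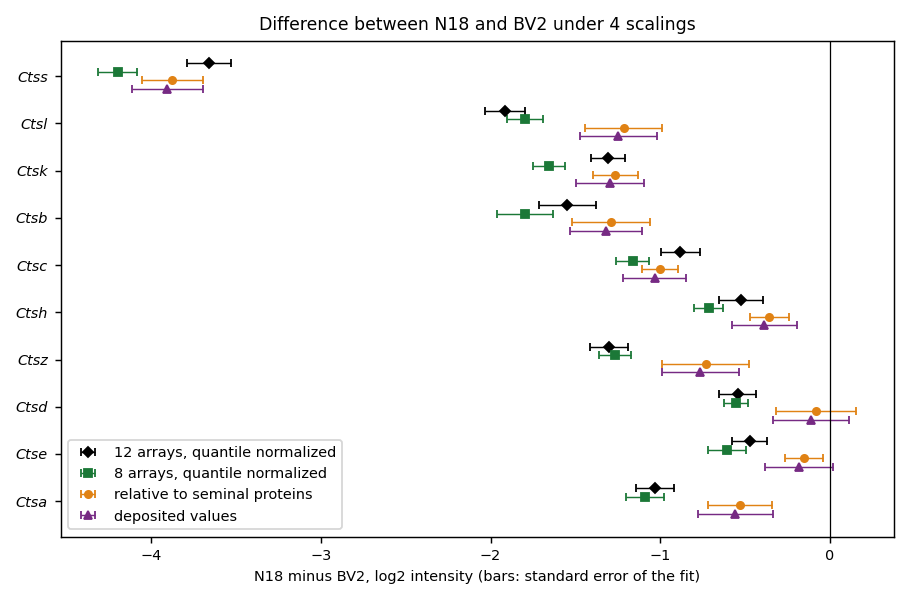
Difference of N18 from BV2 in log2 intensity (horizontal axis) for each cathepsin gene, with 12 or 8 quantile-normalized arrays, relative to the seminal proteins, and with the deposited values. Points are the fitted differences and bars their standard errors; Ctss lies beyond -3 under each, while Ctsd and Ctse come close to 0 under the last 2.

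Taken probe by probe, the mean of all 30 probes was lower in N18 than in BV2, and for 24 of them the plates of the lines did not overlap. Over all 72000 probes 53.6% had a lower mean in N18, and 24.5% had every N18 plate below every BV2 plate. Of the 30 probes, 4 were above the threshold in neither line (2 of Ctsh and 1 each of Ctsc and Ctsa), so that their direction carries no measure of the gene. The 6 with overlapping plates were 2 of Ctsh and 1 each of Ctsa, Ctsd, Ctsk and Ctsl. With deposited or seminal-scaled values, 27 of the 30 were lower, and the share over all probes was not computed on those scales. The probes of a gene nevertheless differed in size, so the fold of a gene depends on which of its probes are read. For Ctsz they gave -2.31, -1.07 and -1.33, and for Ctsb -1.78, -1.73 and -0.47.

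**Figure D3:**
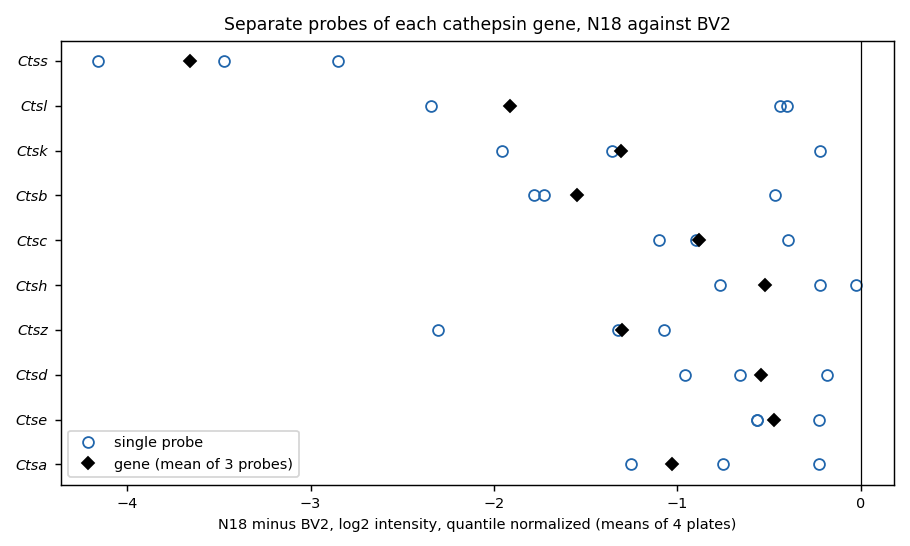
Difference of N18 from BV2 (horizontal axis, quantile-normalized log2 intensity, means of 4 plates) for each of the 3 probes of a cathepsin gene (open circles) and for the gene (diamonds). All 30 probes lie below 0, from -0.02 for a Ctsh probe to -4.16 for a Ctss probe.

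Against the plates labelled AtT20, 9 of the 10 cathepsins were higher in BV2 and Ctsh was lower (limma on 12 arrays). Over all genes, 26.6% were called higher in BV2 and 47% lower. The median difference of the 10 was 1.73, against -0.23 over all genes. Ctsd differed by 5.13 ± 0.11 (SE, adjusted p = 5.66e-15 in limma), Ctsz by 3.68 ± 0.11, Ctss by 3.35 ± 0.13 and Ctsl by 3.05 ± 0.12. As lower bounds, BV2 was at least 17.6-fold higher for Ctsd, 3.6-fold for Ctsl, 3.5-fold for Ctss, 1.7-fold for Ctsb and 1.6-fold for Ctsa. Ctsk and Ctse were also undetected on the plates labelled AtT20. The bound was 1 for Ctsk when rounded down and not above 1 for Ctse, and Ctsc was below the threshold in both lines. Ctsh was at 10.91, 11.29, 11.44 and 11.64 on the plates labelled AtT20, each above the BV2 plates, with a difference of -0.73 ± 0.13 (SE, adjusted p = 8.76e-05 in limma). On the seminal scale this Ctsh difference was 0.19 and did not pass (adjusted p = 0.143), and the other nine were called higher, where 50.4% of all genes were called higher and 17.6% lower. With the deposited values 7 were called higher and 2 lower, beside 11.7% and 74.7% of all genes, and Ctsc (-0.64) and Ctse (-0.20) changed sign. The narrow spread of probes on the plates labelled AtT20 goes with each of these values, and its part in them was not tested.

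Between N18 and the plates labelled AtT20, Ctsd, Ctsz, Ctsl and Ctsb were higher in N18, by 4.59 ± 0.11, 2.38 ± 0.11, 1.14 ± 0.12 and 0.55 ± 0.17 (SE, adjusted p at most 0.00676 in limma). The probes of Ctsz were divided, with a difference of -1.03 for probe 20 and of 3.85 and 4.46 for probes 706 and 847. Probe 20 was the only Ctsz probe above the threshold on the plates labelled AtT20. Over all genes 27.8% were called higher in N18 and 48.6% lower. Ctsd, Ctsl and Ctsb were undetected on the plates labelled AtT20, so these are differences from the background, with lower bounds of 15.1-fold for Ctsd and 1.2-fold for Ctsl and none above 1 for Ctsb. Ctsh, Ctsc and Ctss were lower in N18, by -1.25 ± 0.13, -0.28 ± 0.12 and -0.31 ± 0.13, though Ctsc and Ctss were below the threshold in both lines and Ctsh was below it in N18, with no bound above 1. Ctsa ranged from 10.96 to 11.20 on the plates labelled AtT20, Ctse from 10.60 to 10.73 and Ctsk from 10.14 to 10.46, each overlapping with N18. Their differences of 0.19, 0.05 and 0.04 did not pass. The calls of Ctsc and Ctss were lost without AtT20 plate 3 or without any 1 of the 4 N18 plates (adjusted p from 0.0598 to 0.117), and that of Ctsc also without AtT20 plate 1 (0.129). On the seminal scale 7 were called higher in N18 and 1 lower, beside 60.7% and 16.3% of all genes. With the deposited values 3 were called higher and 4 lower, beside 19.9% and 63.1% of all genes, and Ctsb (-0.12), Ctse (-0.38) and Ctsk (-0.82) changed sign. Ctsd had the widest difference of the 10 on the 12 quantile-normalized arrays, while Ctss and Ctsk, both detected in BV2, were below the threshold in each of these lines. This comparison shares its plates with both others.

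The other lysosomal genes did not go one way between N18 and BV2. Of 98 genes on 8 lists, 45 were called higher in BV2 and 17 higher in N18 (limma on 12 arrays), against 21.9% and 19% of all genes. On the seminal scale the counts were 20 and 28, against 13.1% and 38.8% of all genes, whose calls shifted the same way. Of the 10 cathepsins 8 were called higher in BV2 on that scale.

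Among the 12 other cathepsin genes, 5 were called between N18 and BV2, each higher in BV2. They were Ctsw of cytotoxic lymphocytes (-0.90 ± 0.11), Ctsf (-0.62 ± 0.09), Ctsj of the placenta (-0.61 ± 0.15), Ctsg of neutrophil granules (-0.52 ± 0.12) and Ctsm of the placenta (-0.43 ± 0.15, each the difference of N18 from BV2 with its SE). Ctsg, Ctsj and Ctsm passed the detection threshold in all 3 lines, but their differences lost the call on the seminal scale (-0.17, -0.28 and -0.05), and that of Ctsm also without BV2 plate 2 or 3 or N18 plate 1, 2 or 3 (adjusted p from 0.0505 to 0.107). Ctsw and Ctsf were below the threshold in N18, with a bound of at least 1.3-fold for Ctsw and none above 1 for Ctsf. The remaining 7 of the 12, among them Ctso, were not detected in any line. In BV2 the levels of Ctsg, Ctsj and Ctsm were 1.33, 1.33 and 1.40, beside 1.28 for Ctse. Whether a pass at such a level reflects mRNA of the gene itself was not tested.

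Inhibitors of cysteine cathepsins were matched for 6 of 10 listed genes, of which 4 were called higher in BV2 and 1 in N18. Cstb, the cytosolic stefin B, differed by -1.18 ± 0.17 (SE, adjusted p = 3.17e-05 in limma), Cst6 by -0.81 ± 0.12 and Cst7, a cathepsin inhibitor made by microglia and lymphocytes, by -0.33 ± 0.12. With the median of the probes neither Cst6 (-0.38, adjusted p = 0.0867 in limma) nor Cst7 (-0.39, adjusted p = 0.0634) passed. Both Cst6 and Cst7 were below the threshold in N18, with a bound of 1 for Cst6 when rounded down and none above 1 for Cst7. Cst7 no longer passed on the seminal scale (adjusted p = 0.179), nor without BV2 plate 1, 2 or 3 or any 1 of the 4 N18 plates (adjusted p from 0.0527 to 0.09). Cst3, which encodes the secreted cystatin C, was detected in both lines with a difference of -0.24 ± 0.12 that did not pass (adjusted p = 0.137) and was 0.38 on the seminal scale (adjusted p = 0.082). Ctla2a, whose product resembles a cathepsin propeptide, went the other way at 2.18 ± 0.12 (SE, adjusted p = 2.15e-10 in limma). It was detected in N18 alone, at least 3-fold above BV2.

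Of the other lysosomal proteases, 3 of 6 were higher in BV2, with Dpp7 at -1.28 ± 0.12 and Napsa, an aspartic protease related to Ctsd, at -0.99 ± 0.15. Napsa was below the threshold in N18, and its bound was at least 1.1-fold. The serine carboxypeptidase Scpep1, of the same kind as Ctsa, was higher in N18 by 0.74 ± 0.14 (SE, adjusted p = 0.000446 in limma). The sorting genes were divided, with 3 of 9 higher in each line. Nagpa (-1.70 ± 0.16) and Gnptab (-1.14 ± 0.10), which make the mannose 6-phosphate tag, were higher in BV2. Sort1, which encodes the sorting receptor sortilin, was higher in N18 by 1.23 ± 0.11 (SE, adjusted p = 7.94e-08 in limma).

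The membrane proteins of the lysosome held wide differences in both directions, with 4 of 11 higher in BV2 and 3 in N18. Laptm5, of hematopoietic cells, differed by -3.99 ± 0.17, at least 10.1-fold, while Laptm4b and Cd63 were higher in N18 by 4.47 ± 0.15 and 3.64 ± 0.21. Of 30 other hydrolases and their cofactors 13 were higher in BV2 and 6 in N18. The thioesterase Ppt1 (-2.76 ± 0.12) and the acid lipase Lipa (-2.05 ± 0.11) led in one direction and the acid glucosidase Gaa (1.52 ± 0.18) in the other. For the vacuolar ATPase, 11 of 20 subunits were higher in BV2 and 3 in N18, with Tcirg1, the a3 subunit found in osteoclasts and macrophages, at -2.46 ± 0.13, Atp6v0d1 at -1.63 ± 0.13 and Atp6v0c at -1.21 ± 0.18. The ATPase counts became 3 and 6 on the seminal scale, where 13.1% of all genes were higher in BV2 and 38.8% in N18, and Atp6v0c no longer passed (-0.45, adjusted p = 0.156).

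**Figure D4:**
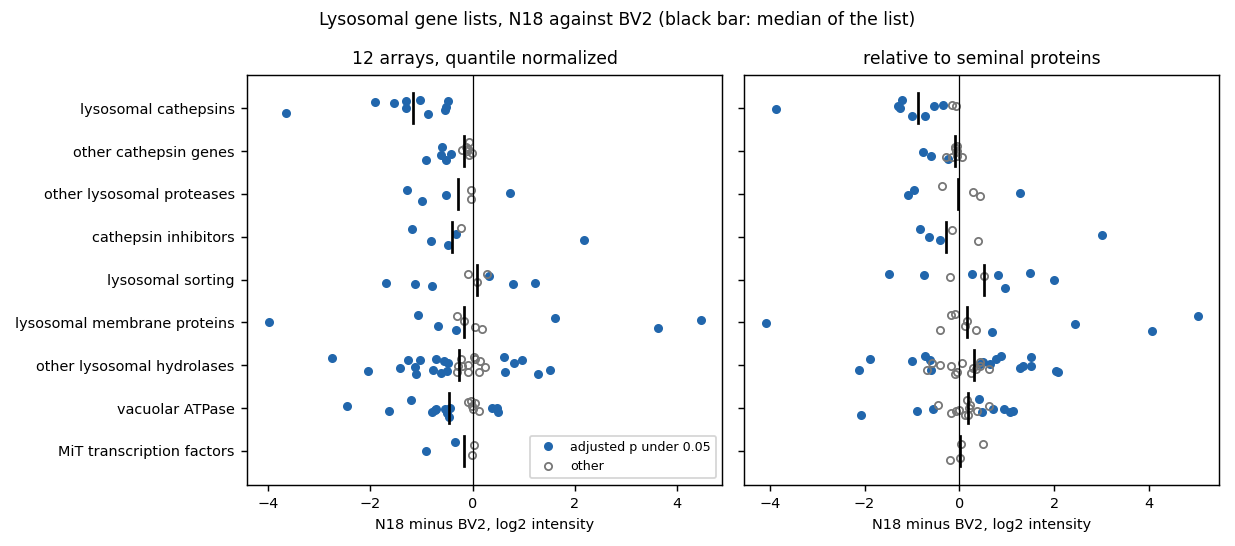
Difference of N18 from BV2 in log2 intensity (horizontal axes) for each gene of the lysosomal lists, with filled points for an adjusted p under 0.05 in limma, open points for other genes and a black bar for the median of a list. The left panel shows 12 quantile-normalized arrays and the right panel values relative to the seminal proteins; the median of the cathepsins is -1.17 on the left and -0.87 on the right.

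The MiT factors, which activate lysosomal genes through E-boxes of the kind printed above, were called higher in BV2 for 2 of 4. Tfe3 differed by -0.90 ± 0.20 and Mitf by -0.35 ± 0.11 (SE, adjusted p = 0.00164 and 0.0159 in limma), and Tfeb by 0.03 ± 0.13 (adjusted p = 0.893). On the seminal scale Mitf (0.01, adjusted p = 0.97), Tfe3 (-0.20, adjusted p = 0.583) and Tfeb (0.49, adjusted p = 0.0684) did not pass. Tfeb, Tfe3 and Mitf were detected in all 3 lines. Whether their levels bear on those of the cathepsins was not tested.

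The genes whose values over the 12 arrays were most like those of a cathepsin were found for the 3 with the widest difference, as the root mean square difference after each gene was centered on its mean. For Ctss these were Cd72 (0.15), Raet1d (0.17) and Pilra (0.18), for Ctsl Smpdl3b (0.17), Neurl3 (0.18) and B2m (0.18), and for Ctsb Rab8b (0.20), Soat1 (0.22) and Creg1 (0.23). The 12 arrays come from 3 lines, so likeness here means a similar set of 3 line means.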

How the data were processed

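The authors hybridized RNA from each plate to a NimbleGen MM8 60-mer array, extracted the Cy3 intensities with NimbleScan 2.4 and transformed them to log2, and these log2 values of 72000 probes on 12 arrays are what was deposited. A level on the seminal scale is relative to the seminal proteins of the same plate. Neither background subtraction nor normalization between arrays is described. Probes were assigned to 25631 targets by accession, of which 69.4% matched a RefSeq symbol. Probe intensities were averaged linearly within a target and targets were averaged as log2 within a gene, and detection followed the study's threshold of 2 SD over the seminal proteins. Lines were compared in limma 3.58.1 (R 4.3.3, moderated with an intensity trend) on quantile-normalized values, with Benjamini-Hochberg adjustment and calls at an adjusted p under 0.05. Lower bounds were taken at the threshold of the undetected line, as the smallest under quantile normalization, seminal scaling and no normalization. The line comparison was also run on simulated data. These held independent normal values without scaling differences between lines, so they do not bear on the choice of scaling.

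The members and lists were chosen with earlier results of these data known, and the motifs after values were seen. Named genes are the 10 cathepsins, detected genes of 3 short lists and the 3 widest called differences of each other list, with the 3 closest genes by likeness for each of 3 cathepsins. Alternatives covered normalization, normexp background (offset 50), probe summary, filters, a replicate block, 8 arrays and each plate left out. Figures were drawn with matplotlib 3.10.9 in Python 3.11.15. Precision is limited by there being 4 arrays for each line.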

Additional observations from a re-analysis of the deposited data

Results flagged for a closer look

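In 5 of 60 sets of 4 plates (10 genes, 3 lines and 2 scales), 1 plate lay far from the other three, by Dixon's criterion, which chance meets in about 1 in 20. All 5 were on the quantile-normalized log2 scale. Ctsk (11.46, the others 11.70 to 11.74) and Ctss (13.01, the others 13.48 to 13.56) were low on BV2 plate 3. Ctse (10.57, the others 10.75 to 10.77) and Ctsh (9.963, the others 10.10 to 10.11) were low on N18 plate 2, and Ctsz was low on N18 plate 4 (13.67, the others 14.12 to 14.17). With each of these plates left out, all 10 cathepsins were still called higher in BV2 than in N18.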

How the results depend on the processing

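All 10 cathepsins kept a lower level in N18 than in BV2 under every alternative run in which they were tested (21 settings, 20 for Ctsc, which the filter on dim genes removed), with 7 to 10 called; the calls of Ctsa, Ctsb, Ctsc, Ctsk, Ctsl, Ctss and Ctsz were kept in each. With 1 plate left out, 10 were called higher in BV2 and 0 in N18, 9 were higher in BV2 than on the plates labelled AtT20 and 1 lower, 4 were higher in N18 than on those plates and 1 to 3 lower, and those detected were 2 for AtT20, 9 to 10 for BV2 (10 without plate 3, when Ctsc passed at 0.64) and 6 for N18. The lower count of 1 came without AtT20 plate 3 or without any 1 of N18 plates 1 to 4. Over the other lists 40 to 48 genes were then higher in BV2 and 15 to 19 in N18, and 29 to 30 of the 30 probes were lower in N18.

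On the seminal scale, the other lists had 20 genes higher in BV2 and 28 in N18, 0 cathepsins were higher on the plates labelled AtT20 than in BV2, and against N18 the counts were 7 higher in N18 and 1 lower. Mitf (0.0095) and Cst3 (0.38) then changed sign between N18 and BV2, and Ctsh (0.19) between BV2 and AtT20. Without normalization, 20 genes of the other lists were higher in BV2, 2 cathepsins were higher on the plates labelled AtT20 than in BV2, and signs changed for Cst3 (0.35, N18 minus BV2), Ctsc (-0.64) and Ctse (-0.20, both BV2 minus AtT20), and Ctsb (-0.12), Ctse (-0.38) and Ctsk (-0.82, N18 minus AtT20). With the median of the probes, Ctsa (-0.22, N18 minus AtT20) and the level of Ctsh in BV2 (-0.40) changed sign, and 1 cathepsin was lower in N18 than on the plates labelled AtT20. With 1 plate left out, Ctsk was at -0.011 to 0.104 (N18 minus AtT20), below 0 without AtT20 plate 3, and Tfeb at -0.018 to 0.0921 (N18 minus BV2), below 0 without BV2 plate 4 or N18 plate 1 or 4. The detected cathepsins on the plates labelled AtT20 fell from 2 to 1 with the mean of log2 probes, the olfactory receptor controls, 3 SD or all 4 plates above the threshold, and to 0 with the median. Over 11 alternatives for detection, the call of Ctsh in BV2 was kept in 6. Those of Ctsb and Ctse in N18 were each kept in 10. The cause of these changes was not tested.

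Over all genes, the calls higher in N18 than in BV2 went from 4775 to 9754 on the seminal scale and 7714 without normalization, and those higher in BV2 from 5495 to 3296 and 1905, or 9062 with the 8 arrays. Higher in BV2 and on the plates labelled AtT20 were 6687 and 11808, or 12668 and 4413 on the seminal scale, 2940 and 18762 without normalization, and 7042 for AtT20 among detected genes. For N18 and AtT20 these were 6981 and 12211, or 15255 and 4094 on the seminal scale, and 7046 for AtT20 among detected genes. Whether plates with the same number shared more than that number is not known. Their deviations correlated between -0.09 and 0.32 for BV2 and N18, and 2 of the 4 numbers correlated best with their own. With the replicate block 10 cathepsins were called higher in BV2 than in N18 (4779 and 5329 genes higher in N18 and BV2 over all), and 2 lower in N18 than on the plates labelled AtT20, where Ctss lost its call (adjusted p = 0.0656). The high intensities of Ctsd, and of Ctsz in BV2, and those of Ctsc near the controls, limit what their differences show.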
